A study of Arabidopsis thaliana with 9 samples.

Results

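The response shared by 2 chromatin mutants of Arabidopsis was read as the genes whose 6 mutant libraries all lay on the same side of all 3 wild-type libraries. Of 32548 genes in the table, 23207 reached a value of 1 in at least 3 libraries and were tested, and 3438 of these (14.8%) met the rule. In 1496 genes (6.45%) all 6 mutant values were above Col-0, and in 1942 genes (8.37%) all were below. With library totals made equal the counts were 1703 above and 1512 below, so which side held more genes depended on the scaling. The size of the shared change was measured by the averaged contrast, the mean of the al24567 and ring1a1b group means of log2(value + 1) minus the Col-0 mean.

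RNA came from seedlings of 11 days, with 3 libraries for each of 3 genotypes. The line al24567 is homozygous mutant for AL2, AL4, AL5, AL6 and AL7, ring1a1b is homozygous mutant for RING1A and RING1B, and Col-0 is the wild type. The labels give no allele names and do not say whether libraries of a genotype came from separate cultures, so the p-values speak for the spread among these 9 libraries only, which may be technical. Values are read counts adjusted to a common library size and not divided by gene length, so levels are compared between genotypes and not between genes.

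ALFIN-like proteins carry a plant homeodomain finger that binds histone H3 methylated at lysine 4, a mark of transcribed genes. RING1 proteins are subunits of Polycomb repressive complex 1, which attaches ubiquitin to histone H2A. It acts with Polycomb repressive complex 2, which methylates lysine 27 of histone H3, and in seedlings the Polycomb system is known for holding seed and floral genes silent.

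The libraries held 18258434 to 22435659 recovered reads, so that a gene without reads could stand at up to 0.134 to 0.164 CPM (3 counts, counting error only). Along the first principal component, with 46.2% of the variance, al24567 (-71.9 to -65.5) and ring1a1b (73.0 to 78.7) lay at opposite ends, with Col-0 between them (-11.6 to -4.5). The second component, with 20.3%, set al24567 (-33.6 to -30.1) and ring1a1b (-28.0 to -19.3) apart from Col-0 (52.2 to 56.8).

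The targeted genes were lower in their own line, except AL5. RING1A had 149, 164 and 133 reads in the al24567 libraries and 0, 1 and 3 in ring1a1b, against 140, 127 and 192 in Col-0. AL2 had 157, 130 and 122 in al24567 and 823, 833 and 901 in ring1a1b, against 837, 923 and 892 in Col-0. RING1B kept reads in ring1a1b, with 174, 201 and 154 in al24567 and 59.2, 70.7 and 53 in ring1a1b, against 81.3, 126 and 113 in Col-0. AL5 had 87.2, 89.1 and 88.8 in al24567 and 150, 148 and 107 in ring1a1b, against 95.6, 84.4 and 96 in Col-0, so that its al24567 and Col-0 libraries overlapped. Of the 9 ALFIN-like and RING1 genes tested, 5 were called lower in the averaged contrast and 4 did not pass the test, while 2 met the rule, AL4 and AL6, both below Col-0. Both are mutated in al24567, so their fall in that line is built into the design. AL4 had 261, 308 and 229 in al24567 and 727, 663 and 675 in ring1a1b, against 955, 824 and 883 in Col-0. AL6 had 128, 119 and 172 in al24567 and 406, 428 and 420 in ring1a1b, against 480, 460 and 428 in Col-0, and the lowest Col-0 value lay just above the highest ring1a1b value. On recovered reads 1 of the 9 genes met the rule.

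In the averaged contrast limma called 5934 of the 23207 genes (25.6%) at an adjusted p below 0.05. Of these, 3113 (13.4%) were higher in the mutants and 2821 (12.2%) were lower, and 1878 were lower without Col-0 replicate 3. Of the genes that met the rule, 1299 of the 1496 above Col-0 and 1634 of the 1942 below it were called. The rule and the contrast read the same libraries, so nothing is read from these counts. In whole seedlings, fewer cells of a type and less RNA per cell cannot be told apart.

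Most shared changes were small. Among genes above Col-0 the median log2 averaged change was 0.59, with medians of 0.63 in al24567 and 0.49 in ring1a1b, and 174 genes were at least 2-fold higher in both mutants. Among genes below Col-0 the median was -0.37, with -0.45 in al24567 and -0.29 in ring1a1b, and 110 genes were at least 2-fold lower in both. The median over all tested genes was -0.01. In 1018 of the genes above Col-0 and 1689 of those below it, at least 1 mutant was under 1.5-fold from Col-0.

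The mutants were also compared with each other, without Col-0 in the contrast. ring1a1b and al24567 differed in 9040 of the 23207 genes (39.0%; limma adjusted p below 0.05) and in 1252 of the 3438 shared genes (36.4%), a share near that of all genes. Over all tested genes, 4652 (20.0%) were higher and 4388 (18.9%) lower in ring1a1b than in al24567. Among genes above Col-0, 193 were higher and 419 lower in ring1a1b than in al24567. Among genes below Col-0, 574 were higher and 66 lower in ring1a1b than in al24567. The fitted change from Col-0 was larger in al24567 for 926 of the 1496 genes above Col-0 and for 1455 of the 1942 below it. The like share over all tested genes was not computed. These splits by direction were not repeated with equal library totals, so they do not say which line had the stronger response.

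**Figure D1:**
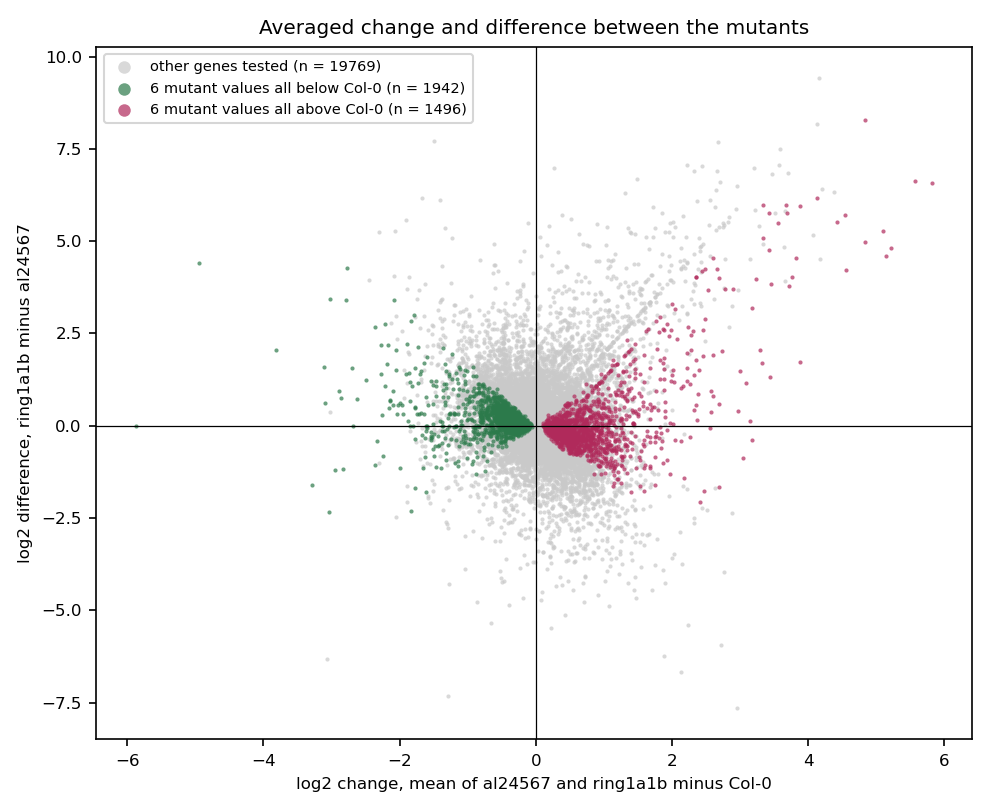
Each point is 1 of 23207 tested genes, with the log2 change of the mutants averaged against Col-0 on the horizontal axis and the log2 difference ring1a1b minus al24567 on the vertical axis. The 1496 genes above Col-0 (red) lie right of 0 and the 1942 below it (green) left of 0, and the largest averaged rises also have large positive differences.

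Shared rises were ordered by the smaller of the log2 changes in the 2 mutants, among called genes with a mean over the 9 libraries of at least 40. Of the 12 genes that head this order, 6 were well above Col-0 in each mutant, among them DIN11, AACT1 and MAF5. The other 6, with 4 seed genes or late embryogenesis genes and AGO9 among them, had few reads in al24567 and passed the limit of 40 through ring1a1b alone. Genes with a like change in al24567 but a lower level in ring1a1b were left out by that limit. Examples, chosen after their values were seen, are ULT2, with means of 7.44 in al24567 and 26.1 in ring1a1b and no reads in Col-0, and DELTA-VPE, with 9.87 in al24567 and 27 in ring1a1b, against 0.634 in Col-0. Promoters are shown for 4 of the 12 rises and for QQS, the first of the falls in that order whose promoter holds ACGTG. All 4 printed rises hold ACGTG, and the promoters of the other rises are not shown. The printed sequences are picked examples and do not give the share of the 12 rises that holds the element. Each is the 250 bases before the gene start in RefSeq TAIR10.1, and capitals mark ACGTG or its reverse complement CACGT, the core of the abscisic acid response element.
DIN11, chr3:18393497-18393746, plus strand: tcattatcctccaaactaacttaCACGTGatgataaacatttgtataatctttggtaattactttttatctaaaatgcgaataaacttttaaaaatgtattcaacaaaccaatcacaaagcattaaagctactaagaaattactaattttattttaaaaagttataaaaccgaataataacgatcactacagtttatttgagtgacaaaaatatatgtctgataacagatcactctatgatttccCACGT
AT4G36600, chr4:17263314-17263563, plus strand: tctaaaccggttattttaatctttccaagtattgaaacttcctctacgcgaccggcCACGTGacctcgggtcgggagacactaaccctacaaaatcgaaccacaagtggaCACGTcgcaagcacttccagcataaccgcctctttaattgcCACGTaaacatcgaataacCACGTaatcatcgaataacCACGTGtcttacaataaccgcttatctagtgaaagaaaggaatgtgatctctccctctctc
EM1, chr3:19214472-19214721, plus strand: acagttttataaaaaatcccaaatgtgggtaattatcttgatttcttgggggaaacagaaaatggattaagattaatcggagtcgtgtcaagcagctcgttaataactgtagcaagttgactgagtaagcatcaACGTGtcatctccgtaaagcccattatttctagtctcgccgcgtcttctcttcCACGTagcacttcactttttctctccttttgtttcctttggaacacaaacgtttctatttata
MAF5, chr5:25997254-25997503, plus strand: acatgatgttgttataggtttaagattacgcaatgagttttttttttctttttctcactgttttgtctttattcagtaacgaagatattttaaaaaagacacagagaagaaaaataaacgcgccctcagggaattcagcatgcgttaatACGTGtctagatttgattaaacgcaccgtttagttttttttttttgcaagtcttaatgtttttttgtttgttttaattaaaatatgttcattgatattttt
QQS, chr3:12348797-12349046, plus strand: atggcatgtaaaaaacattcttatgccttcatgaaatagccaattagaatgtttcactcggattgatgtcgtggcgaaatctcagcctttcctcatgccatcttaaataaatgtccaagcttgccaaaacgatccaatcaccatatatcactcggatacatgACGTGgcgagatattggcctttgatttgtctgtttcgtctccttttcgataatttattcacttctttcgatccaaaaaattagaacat

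ACGTG on either strand was found in 436 of 1473 promoters of protein-coding genes above Col-0 (29.6%) and in 452 of 1906 below it (23.7%), against 5338 of all 22198 tested promoters (24%). Among genes with a mean of at least 40 the shares were 29% above, 24% below and 23.8% over all. The G-box CACGTG, which contains ACGTG, was in 8.42% above, 7.97% below and 7.29% of all. CATGCA, the core of the RY element found in seed genes, was in 9.78% above, 6.87% below and 8.19% of all. These are matches of letters and a description only.

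DIN11 (AT3G49620; chromosome 3, 18393747 to 18397050), the dark-induced oxygenase gene, had 69.2, 149 and 78.3 in al24567 and 94, 113 and 101 in ring1a1b, against 6.31, 13.6 and 12.1 in Col-0. All mutant libraries lay far above Col-0 and the mutants overlapped. The averaged log2 change was 3.14 ± 0.27 (SE; limma adjusted p = 1.5e-07) and the difference between the mutants was 0.13 ± 0.31 (adjusted p = 0.773). AACT1 (AT5G61160), known here only by its annotated name as an anthocyanin acyltransferase, had 55.1, 139 and 66.1 in al24567. It had 68, 61 and 55 in ring1a1b, against 7.27, 7.37 and 5.92 in Col-0. Replicate 2 was its highest al24567 library, as for DIN11.

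TSPO (AT2G47770), for a membrane protein induced by abscisic acid, stood at 104 ± 28.4 in al24567 and 291 ± 73.8 in ring1a1b, against 21 ± 6.1 in Col-0 (SD, n = 3 each). No libraries of different genotypes overlapped, and ring1a1b was 1.48 ± 0.25 above al24567 on the log2 scale (limma adjusted p = 0.000131). MAF5 (AT5G65080; chromosome 5, 25997504 to 26002619), a MADS-box repressor of flowering, had 64.1, 85.8 and 83.1 in al24567 and 125, 123 and 96.8 in ring1a1b, against 19.7, 10.7 and 25.3 in Col-0. It rose by 2.36 ± 0.24 on the log2 scale (limma adjusted p = 1.22e-06), and the difference between the mutants did not pass the test (0.56 ± 0.28, adjusted p = 0.123). The kelch repeat gene AT4G39580 stood at 77.7 ± 6.26 in al24567 and 104 ± 12.3 in ring1a1b, against 17.2 ± 1.43 in Col-0, and AT5G44440, for a berberine bridge family enzyme, at 30.5 ± 12.9 in al24567 and 122 ± 14.2 in ring1a1b, against 5.16 ± 0.937 in Col-0 (SD, n = 3 each).

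The 6 rises carried by ring1a1b had at most 3 reads over the Col-0 libraries and few in al24567. AGO9 (AT5G21150), an Argonaute gene that acts with small RNAs in the ovule, had 8, 9 and 6 reads in the al24567 libraries and 787, 933 and 913 in ring1a1b, against 0, 0 and 3 in Col-0. Its ratio to Col-0 was 8.31 (95% counting interval 2.51 to 43.2) in al24567 and 883 (95% counting interval 302 to 4283) in ring1a1b, and all Col-0 reads were in replicate 3. AT4G36600, for a late embryogenesis abundant protein, had 9, 8 and 8 reads in the al24567 libraries and 443, 344 and 390 in ring1a1b, against 0, 2 and 1 in Col-0, with ratios of 9.03 (95% counting interval 2.76 to 46.7) in al24567 and 395 (95% counting interval 135 to 1916) in ring1a1b.

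OLEO2 (AT5G40420), for an oleosin of seed oil bodies, had 12, 3 and 5 reads in the al24567 libraries and 224, 152 and 162 in ring1a1b, against 0, 0 and 0 in Col-0. From a floor of 3 counts over the Col-0 libraries it was at least 180-fold higher in ring1a1b. EM1 (AT3G51810), another late embryogenesis gene, had 12, 6 and 0 reads in the al24567 libraries and 585, 337 and 564 in ring1a1b, against 0, 0 and 0 in Col-0, and was at least 500-fold higher in ring1a1b. BGLU19, a beta-glucosidase gene, had 30, 7 and 0 reads in the al24567 libraries and 319, 498 and 49 in ring1a1b, against 0, 0 and 0 in Col-0. AT1G72100, also of the late embryogenesis class, had 10, 4 and 1 reads in the al24567 libraries and 193, 156 and 145 in ring1a1b, against 0, 0 and 0 in Col-0, and was at least 165-fold higher in ring1a1b. No limit is given for al24567 in these genes, since it would rest on few reads that differ between its libraries.

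EM1 and BGLU19 met the rule although al24567 replicate 3 had 0 reads of either, because the deposited adjustment gives such a library a value just above 0. This holds for 100 of the 1496 genes above Col-0, all of them among the 111 genes with 0 reads in Col-0. Applied to recovered reads, the rule found 1497 genes above Col-0, 1394 of them also found from the deposited values, and 1761 below, 1756 of them also found before.

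**Figure D2:**
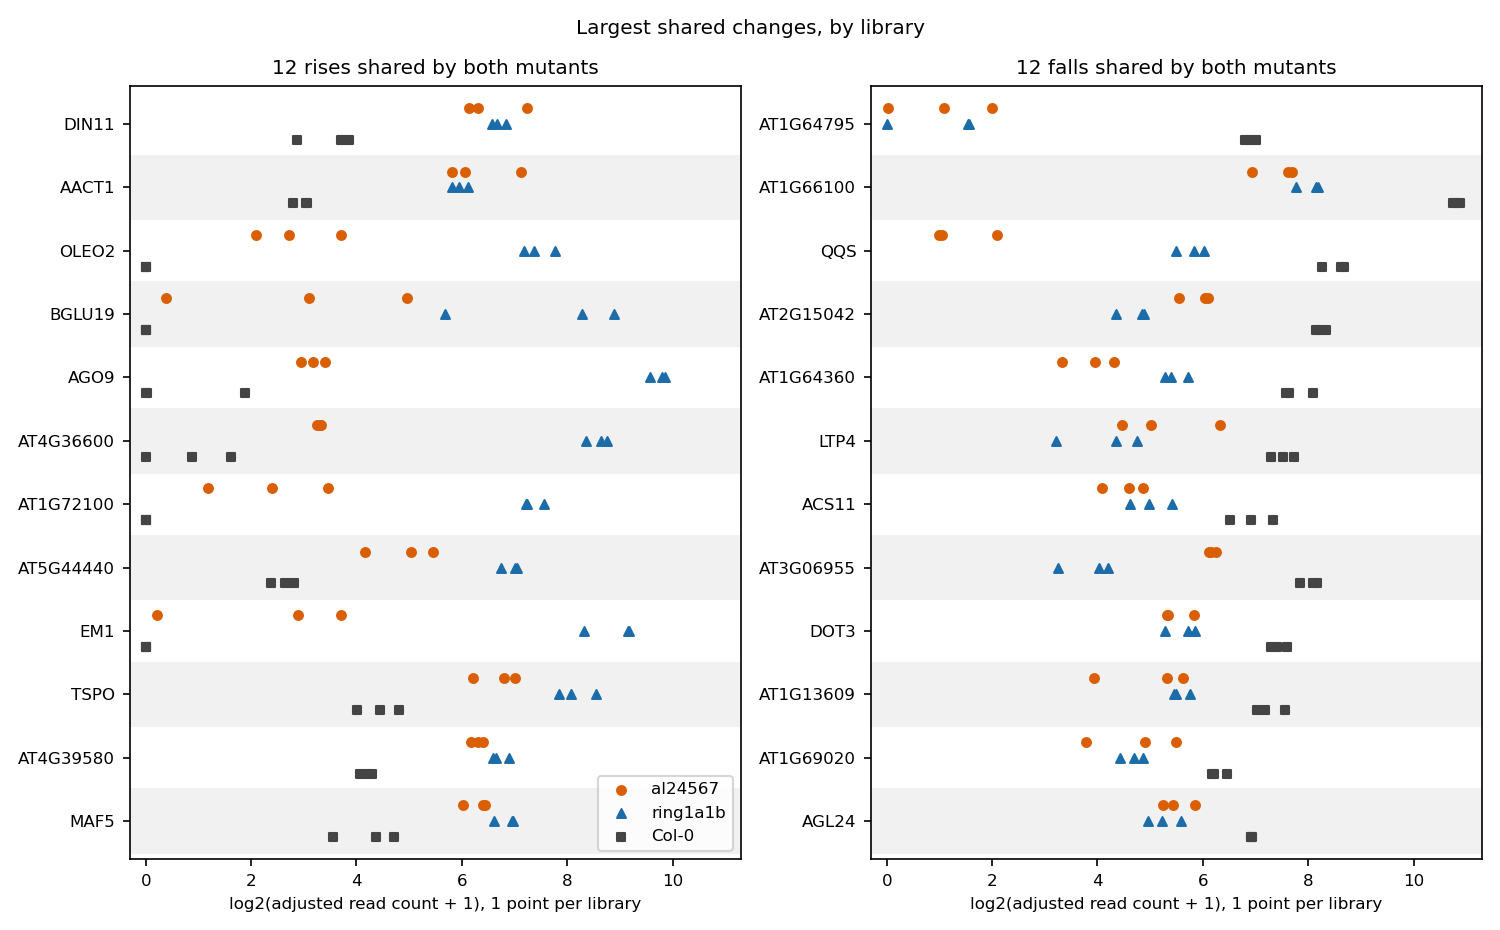
The 12 first-ranked rises (left) and falls (right) shared by both mutants, among called genes with a mean of at least 40, as log2(adjusted read count + 1) with 1 point per library, and al24567, ring1a1b and Col-0 from top to bottom within each gene. In DIN11, AACT1 and AT4G39580 the mutants stand close together, whereas in AGO9, EM1 and OLEO2 ring1a1b lies far above al24567.

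The first-ranked falls held small proteins, an orphan gene of starch content, an ethylene synthesis gene and a flowering promoter. AT1G64795 (chromosome 1, 24082579 to 24082848), for an uncharacterized protein, had 3, 0 and 1 reads in the al24567 libraries and 2, 2 and 0 in ring1a1b, against 106, 113 and 149 in Col-0. It was near 0 in every mutant library. AT1G66100, a thionin gene, had 122, 206 and 195 in al24567 and 216, 289 and 283 in ring1a1b, against 1725, 1894 and 1788 in Col-0, and its averaged log2 change was -3.09 ± 0.13 (limma adjusted p = 5.55e-11).

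QQS (AT3G30720; chromosome 3, 12349047 to 12349933), an orphan gene that affects starch content, had 1, 1.08 and 3.26 in al24567 and 64.1, 43.7 and 56 in ring1a1b, against 396, 306 and 410 in Col-0. Both mutants lay below Col-0 without overlap, and ring1a1b was 4.40 ± 0.31 above al24567 on the log2 scale (limma adjusted p = 3.26e-09). In AT2G15042, for a leucine-rich repeat protein, the mutants stood in the other order, with 65.1, 67.8 and 46 in al24567 and 19.3, 27.7 and 28.5 in ring1a1b, against 284, 323 and 296 in Col-0. The RNA gene AT3G06955 stood at 71.2 ± 3.72 in al24567 and 13.7 ± 4.71 in ring1a1b, against 263 ± 30.1 in Col-0 (SD, n = 3 each).

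LTP4, a lipid transfer protein gene, had 21.1, 78.8 and 31.5 in al24567 and 19.4, 25.9 and 8.22 in ring1a1b, against 156, 184 and 211 in Col-0. ACS11, for an enzyme that makes the ethylene precursor, had 28.1, 16.1 and 23.3 in al24567 and 41.8, 23.7 and 30.6 in ring1a1b, against 90.7, 160 and 119 in Col-0. DOT3, a gene of leaf vein patterning, had 56.1, 39.4 and 39.1 in al24567 and 37.7, 51.5 and 57 in ring1a1b, against 194, 170 and 156 in Col-0. In ACS11 and DOT3 the mutants overlapped each other and lay below every Col-0 library. The averaged log2 changes of the other 4 were -3.11 for AT1G64360, -2.00 for the defensin-like gene AT1G13609, -1.59 for AT1G69020, a prolyl oligopeptidase family gene, and -1.54 for AGL24.

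The shared genes with the largest differences between the mutants were led by genes with few or no reads in al24567. CRU3, for a cruciferin storage protein, had 3, 0 and 0 reads in the al24567 libraries and 1559, 1017 and 83 in ring1a1b, against 0, 0 and 0 in Col-0, and its averaged call was lost with edgeR (adjusted p = 0.243). AT3G54940, for a papain family protease, had 7, 0 and 0 reads in the al24567 libraries and 175, 106 and 182 in ring1a1b, against 0, 0 and 0 in Col-0. Among falls, ESE3, an ethylene-responsive factor gene, had 39.1, 48.6 and 28.2 in al24567 and 332, 440 and 470 in ring1a1b, against 982, 741 and 904 in Col-0, and AT3G23480, for a cyclopropane fatty acid synthase, had 9.02, 5.35 and 5.61 in al24567 and 107, 167 and 168 in ring1a1b, against 196, 270 and 212 in Col-0. Their falls were larger in al24567, with ring1a1b above it by 3.41 ± 0.17 and 4.28 ± 0.25 on the log2 scale (limma adjusted p = 3.99e-11 and 2.64e-10). AT1G77960 differed likewise, by 3.40 ± 0.53 (adjusted p = 4.26e-05). It had 1.01, 12.7 and 16.3 in al24567 and 74.6, 71.3 and 101 in ring1a1b, against 101, 114 and 103 in Col-0. Against Col-0, ring1a1b did not pass the test for AT1G77960 (-0.38 ± 0.53, limma adjusted p = 0.698) or AT3G23480 (-0.63 ± 0.25, 0.101). It passed for ESE3 (-1.08 ± 0.17, 0.000202).

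Gene groups are described by the number of members that met the rule, beside 6.45% above and 8.37% below Col-0 over all tested genes, and by the averaged calls, beside 13.4% higher and 12.2% lower. No group was tested as a set. An averaged call can come from a single mutant, so genes that rose or fell need not have changed in both. Of 20 flowering repressors, 3 lay above Col-0 and 0 below, while 5 rose, 3 fell and 12 did not pass the test. Of 16 flowering promoters, 2 lay below and 0 above, while 5 fell and 11 did not pass. The median fitted log2 change of the promoters was -1.01 in al24567 and 0.18 in ring1a1b. That of the repressors was -0.14 in al24567 and 0.09 in ring1a1b, so the repressors named below do not stand for the list.

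Besides MAF5, the repressors above Col-0 were TEM1 and SMZ. TEM1, which represses the florigen gene FT, had 2850, 2366 and 2719 in al24567 and 1759, 1742 and 1661 in ring1a1b, against 1271, 1321 and 1331 in Col-0. It rose by 0.70 ± 0.06 on the log2 scale (limma adjusted p = 2.12e-07), with ring1a1b minus al24567 at -0.62 ± 0.07 (adjusted p = 1.8e-06). SMZ, an AP2-like repressor, had 105, 95.7 and 110 in al24567 and 59.1, 70.6 and 69.2 in ring1a1b, against 31.2, 44.1 and 30.6 in Col-0.

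AGL24, a MADS-box promoter of flowering, had 37.1, 57.1 and 42.3 in al24567 and 30, 36.2 and 46.8 in ring1a1b, against 120, 121 and 120 in Col-0. It fell by 1.41 ± 0.24 on the log2 scale in al24567 and by 1.67 ± 0.24 in ring1a1b, and the difference between them did not pass the test (-0.27 ± 0.24, limma adjusted p = 0.408). Of 12 floral organ identity genes, 1 lay above and 1 below Col-0, while 2 rose, 1 fell and 9 did not pass. SEP4, the one below, stood at 36.2 ± 4.29 in al24567 and 104 ± 12 in ring1a1b, against 198 ± 4.79 in Col-0 (SD, n = 3 each). The summed level of the 12 genes was 321.3 to 344.5 in al24567 and 319.9 to 366.0 in ring1a1b, against 397.9 to 416.0 in Col-0. SEP4 alone gave 200, 193 and 202 of the Col-0 sums, so the sum leans on this gene and does not describe the list. The median fitted log2 change of the 12 genes was 0.59 averaged, 0.49 in al24567 and -0.15 in ring1a1b. Of 21 meristem and organ boundary genes, 1 lay above and 1 below, while 2 rose, 1 fell and 18 did not pass.

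Among clock genes, 5 of 21 lay below Col-0 in both mutants and 1 above, while 9 fell, 2 rose and 10 did not pass. CCA1, a core gene of the morning phase, had 3344, 2907 and 3300 in al24567 and 2492, 2494 and 2314 in ring1a1b, against 4761, 4839 and 4758 in Col-0. It fell by 0.78 ± 0.06 on the log2 scale (limma adjusted p = 2.78e-08), and ring1a1b was below al24567 (-0.39 ± 0.07, adjusted p = 0.000167). LNK2 (AT3G54500), a coactivator of clock genes, had 7115, 6009 and 6384 in al24567 and 5805, 6214 and 6108 in ring1a1b, against 8950, 8796 and 9005 in Col-0. CDF2, a cycling repressor of flowering, had 522, 514 and 547 in al24567 and 457, 413 and 440 in ring1a1b, against 719, 628 and 638 in Col-0. The hour of collection is not given in the sources used here.

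Chlorophyll and light genes held the most members below Col-0 of any list. Of 29 genes, 10 lay below Col-0 and 3 above, while 13 fell, 2 rose and 14 did not pass, with a median log2 change of -0.19. On recovered reads 8 lay below and 3 above. The chlorophyll synthase gene CHLG (listed as G4) had 2951, 2631 and 2818 in al24567 and 3266, 2976 and 3148 in ring1a1b, against 4108, 3686 and 3735 in Col-0. PHYC, a red light receptor gene, had 762, 695 and 709 in al24567 and 716, 703 and 755 in ring1a1b, against 872, 893 and 875 in Col-0, and PIF5 (listed as PIL6), which promotes growth in darkness, had 4335, 4731 and 5342 in al24567 and 5321, 6140 and 6335 in ring1a1b, against 7066, 7303 and 6890 in Col-0.

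ELIP1 and ELIP2, early light-induced genes whose products bind chlorophyll under light stress, lay above Col-0. ELIP1 had 561, 538 and 598 in al24567 and 407, 313 and 307 in ring1a1b, against 213, 215 and 214 in Col-0, and ELIP2 had 114, 89.3 and 82.5 in al24567 and 404, 394 and 361 in ring1a1b, against 33.2, 26.4 and 24.6 in Col-0. ELIP1 was higher in al24567 (ring1a1b minus al24567 -0.73 ± 0.11, limma adjusted p = 3.34e-05) and ELIP2 higher in ring1a1b (2.02 ± 0.18, adjusted p = 8.21e-08). The pair are similar in sequence and may exchange reads.

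Of 40 photosynthesis genes, 1 lay below Col-0 and 0 above, while 2 fell and 38 did not pass. With equal library totals 6 lay below and 8 fell. RBCS1B, for a small subunit of Rubisco, did not meet the rule and had 8101, 8716 and 10442 in al24567 and 7093, 7503 and 6600 in ring1a1b, against 10173, 8975 and 10088 in Col-0. Its averaged call (limma adjusted p = 0.00983) was lost without Col-0 replicate 1 (0.067) or replicate 3 (0.0673).

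**Figure D3:**
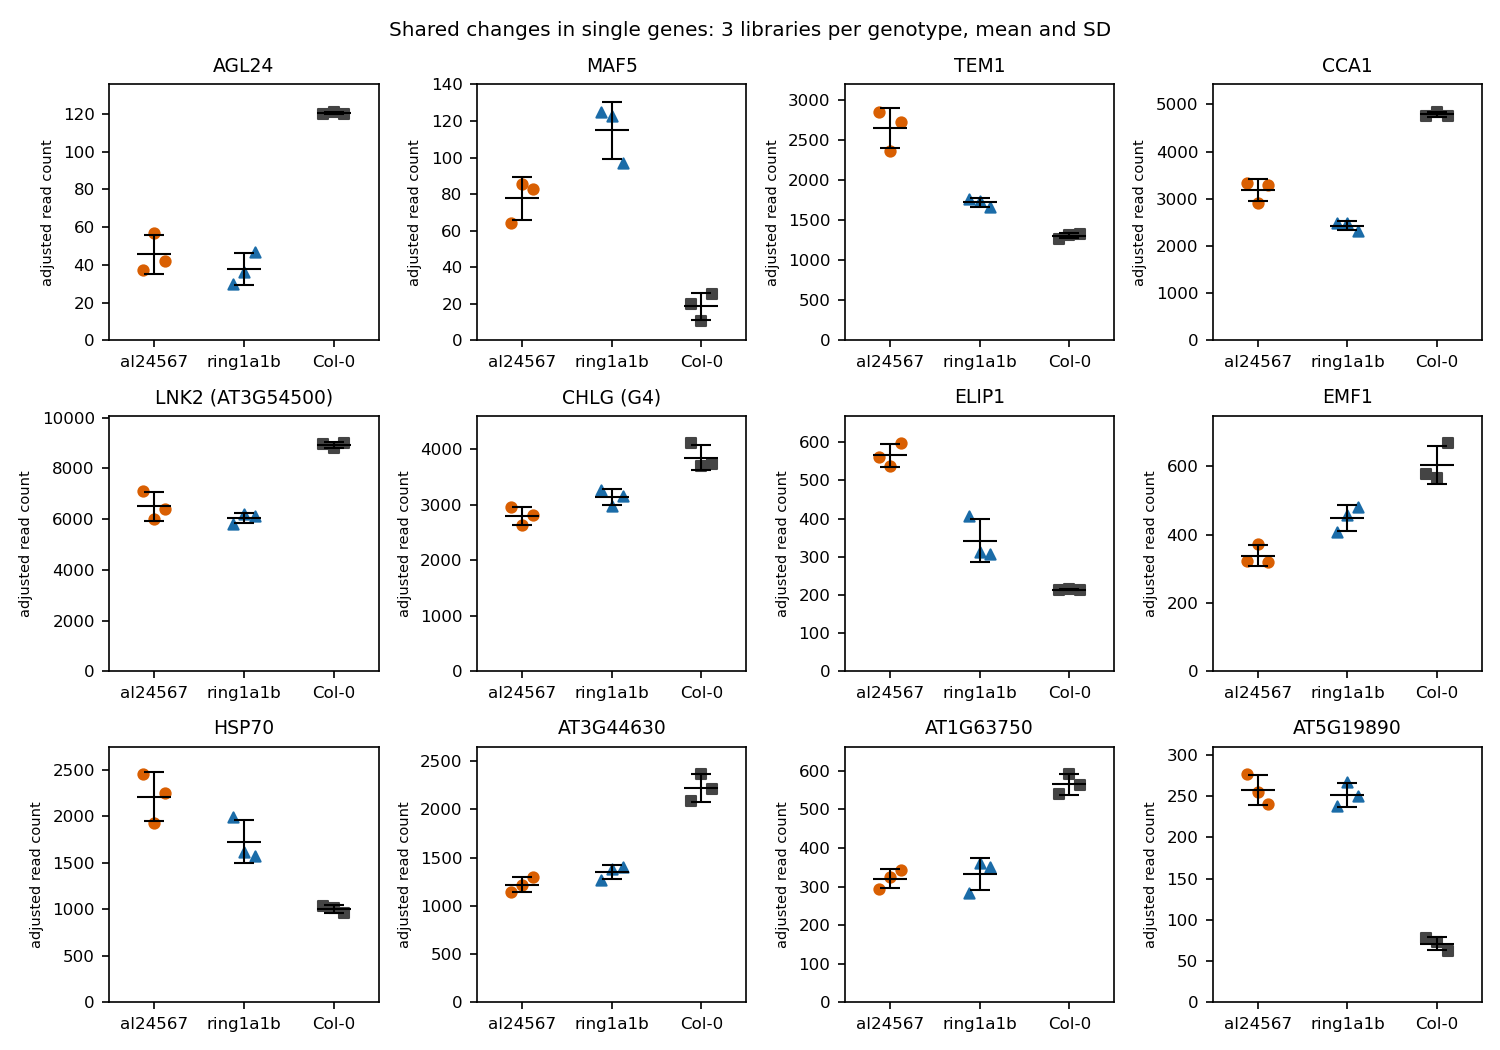
Adjusted read counts of 12 genes in al24567, ring1a1b and Col-0 from left to right, with 1 point per library, a line at the mean and bars of 1 SD (n = 3 each). In MAF5, TEM1, ELIP1, HSP70 and AT5G19890 all 6 mutant points lie above the 3 Col-0 points, and in the other 7 genes they lie below.

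Of 21 Polycomb genes, 3 lay below and 1 above, while 4 fell, 2 rose and 15 did not pass; with equal totals 2 lay below and 0 above. EMF1, a plant Polycomb partner that keeps floral genes silent, had 324, 373 and 319 in al24567 and 407, 457 and 481 in ring1a1b, against 578, 564 and 668 in Col-0, and fell by 0.63 ± 0.09 on the log2 scale (limma adjusted p = 3.23e-05). CLF, for a methyltransferase of histone H3 lysine 27, had 381, 324 and 331 in al24567 and 324, 286 and 303 in ring1a1b, against 397, 394 and 411 in Col-0. Without Col-0 replicate 3 it was no longer called (adjusted p = 0.0689).

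Of 19 genes for H3K4 and H3K36 methyltransferases and demethylases, 2 lay below Col-0 and 0 above, while 5 fell and 14 did not pass. With equal totals 0 met the rule and 2 fell. ELF6, for a histone demethylase, had 628, 526 and 547 in al24567 and 553, 647 and 574 in ring1a1b, against 665, 661 and 700 in Col-0, and its call was lost in several alternatives, among them equal totals (limma adjusted p = 0.0605). Of 22 DNA methylation and heterochromatin genes, 3 lay below and 0 above, while 5 fell and 17 did not pass. The methyltransferase gene CMT3 had 341, 390 and 249 in al24567 and 405, 372 and 424 in ring1a1b, against 506, 480 and 466 in Col-0. IBM1, which protects genes from methylation, had 427, 472 and 367 in al24567 and 347, 375 and 396 in ring1a1b, against 504, 517 and 518 in Col-0, and the DNA demethylase gene DML3 had 120, 100 and 134 in al24567 and 158, 108 and 184 in ring1a1b, against 220, 239 and 199 in Col-0.

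Of 23 Argonaute and RNA silencing genes, AGO9 and RDR2 lay above Col-0 and 0 below, while 8 rose and 15 did not pass. RDR2, for an RNA-dependent RNA polymerase, had 367, 308 and 317 in al24567 and 226, 222 and 215 in ring1a1b, against 192, 176 and 168 in Col-0. Of 21 histone H2A, H2B and H3 genes, HTA4 alone met the rule, with 196, 175 and 191 in al24567 and 137, 164 and 127 in ring1a1b, against 230, 230 and 210 in Col-0; 4 fell and 17 did not pass. Of 34 cell cycle and DNA replication genes, 1 lay below and 0 above, while 2 rose, 5 fell and 27 did not pass.

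Some seed storage genes met the rule by the deposited values, and fewer by reads. Of 21 seed storage, oil body and late embryogenesis genes, 8 lay above and 0 below, while 15 rose and 6 did not pass. On recovered reads 2 lay above. All 8 differed between the mutants, and the median fitted log2 change was 0.48 in al24567 and 4.51 in ring1a1b. The summed level was 1287, 1217 and 1117 in al24567 and 6944, 5016 and 3722 in ring1a1b, against 1125, 1117 and 1054 in Col-0. PER1, a seed peroxiredoxin gene, had 6, 3 and 0 reads in the al24567 libraries and 173, 162 and 116 in ring1a1b, against 0, 0 and 0 in Col-0. Of 11 seed maturation regulators, 0 met the rule on either side, while 2 rose, 1 fell and 8 did not pass; ABI3 had 2, 1 and 2 reads in the al24567 libraries and 42, 27 and 40 in ring1a1b, against 0, 2 and 0 in Col-0.

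Of 30 abscisic acid, cold and drought genes, 2 lay above Col-0 and 1 below, while 8 rose, 3 fell and 19 did not pass. In 7 of the 30 the mutants lay on opposite sides of Col-0, beside 2.96% and 3.03% of all tested genes in the 2 directions. ABI1, for a phosphatase that inhibits abscisic acid signalling, had 3357, 2829 and 3397 in al24567 and 3668, 3293 and 3334 in ring1a1b, against 2610, 2323 and 2496 in Col-0. HAB1, for another such phosphatase, had 1972, 1721 and 1789 in al24567 and 2083, 1854 and 1908 in ring1a1b, against 1508, 1675 and 1521 in Col-0. ABF4, for a transcription factor of the pathway, had 708, 657 and 632 in al24567 and 798, 693 and 781 in ring1a1b, against 815, 872 and 815 in Col-0, and its call was lost without Col-0 replicate 2 (limma adjusted p = 0.104) or replicate 3 (0.0513).

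Heat shock genes that met the rule all lay above Col-0. Of 20 heat shock and protein folding genes, 5 lay above and 0 below, while 8 rose, 1 fell and 11 did not pass. The median fitted log2 change of this list was 0.42 in al24567 and 0.07 in ring1a1b, and 3 of the 5 differed between the mutants. In 3 of the 20 the mutants lay on opposite sides of Col-0, beside 2.96% and 3.03% of all tested genes in the 2 directions. The chaperone gene HSP70 (AT3G12580) had 2457, 1928 and 2257 in al24567 and 1996, 1617 and 1575 in ring1a1b, against 1040, 1012 and 958 in Col-0, and rose by 0.96 ± 0.08 on the log2 scale (limma adjusted p = 1.25e-07). HSFB2A, a heat shock factor gene, had 796, 675 and 834 in al24567 and 773, 822 and 767 in ring1a1b, against 492, 484 and 453 in Col-0, and HSP90.1 had 503, 503 and 553 in al24567 and 455, 383 and 401 in ring1a1b, against 319, 359 and 283 in Col-0.

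Of 31 jasmonate and ethylene defence genes, 4 lay above Col-0 and 1 below, while 16 rose, 3 fell and 12 did not pass. The median fitted log2 change of this list was 0.94 in al24567 and -0.13 in ring1a1b. CORI3, a gene induced by the jasmonate mimic coronatine, had 4535, 6432 and 6482 in al24567 and 3913, 2674 and 3140 in ring1a1b, against 1405, 1439 and 1027 in Col-0. The jasmonate synthesis gene AOC1 had 1072, 1700 and 1674 in al24567 and 856, 744 and 786 in ring1a1b, against 486, 596 and 534 in Col-0, and its neighbour AOC2 had 3069, 4293 and 4278 in al24567 and 1851, 1792 and 1724 in ring1a1b, against 1410, 1618 and 1138 in Col-0; the pair are similar and may exchange reads. All 3 were higher in al24567, with ring1a1b minus al24567 at -0.84, -0.87 and -1.10 (limma adjusted p = 0.000124, 3.41e-05 and 6.35e-07). JAZ3, a repressor of the jasmonate response, had 355, 402 and 408 in al24567 and 339, 384 and 426 in ring1a1b, against 470, 525 and 564 in Col-0.

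Among salicylic acid defence genes, 2 of 29 lay above Col-0 and 0 below, while 12 rose, 1 fell and 16 did not pass. In 11 the mutants lay on opposite sides of Col-0, beside 2.96% and 3.03% of all tested genes in the 2 directions. The opposite-side counts of the lists were not repeated with equal library totals. The median fitted log2 change was 1.33 in al24567 and -0.47 in ring1a1b. EPS1, of salicylic acid synthesis, had 120, 142 and 171 in al24567 and 111, 102 and 123 in ring1a1b, against 73.8, 71.7 and 82.5 in Col-0. SAG101, a partner of EDS1 in immunity, had 381, 370 and 358 in al24567 and 289, 342 and 350 in ring1a1b, against 238, 259 and 237 in Col-0. Of 24 pattern-triggered immunity genes, 1 lay above and 1 below, while 3 rose, 4 fell and 17 did not pass. The transcription factor gene WRKY53, the one below, had 336, 391 and 465 in al24567 and 222, 406 and 327 in ring1a1b, against 488, 498 and 571 in Col-0, and it was no longer called without Col-0 replicate 3 (limma adjusted p = 0.0522).

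Of 32 auxin genes, 5 lay below Col-0 and 2 above, while 15 fell, 2 rose and 15 did not pass. The median fitted log2 change of the 32 was -0.55 in al24567 and 0.03 in ring1a1b. All 5 below were closer to Col-0 in ring1a1b than in al24567. IAA2, an auxin-induced repressor gene, had 438, 446 and 463 in al24567 and 1270, 1338 and 1493 in ring1a1b, against 1702, 1667 and 1788 in Col-0. IAA1, of the same family, had 166, 176 and 191 in al24567 and 620, 701 and 724 in ring1a1b, against 841, 786 and 828 in Col-0. ring1a1b was above al24567 by 1.60 ± 0.07 for IAA2 and 1.93 ± 0.09 for IAA1 on the log2 scale (limma adjusted p = 1.12e-11 and 1.31e-11). The auxin efflux carrier gene PIN3 had 2037, 2247 and 2595 in al24567 and 2900, 3068 and 3190 in ring1a1b, against 3923, 3760 and 3984 in Col-0. Above Col-0 were TAA1, of auxin synthesis, with 319, 325 and 305 in al24567 and 417, 355 and 352 in ring1a1b, against 197, 212 and 185 in Col-0, and the influx carrier gene LAX3, with 720, 660 and 679 in al24567 and 690, 668 and 591 in ring1a1b, against 498, 555 and 540 in Col-0.

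**Figure D4:**
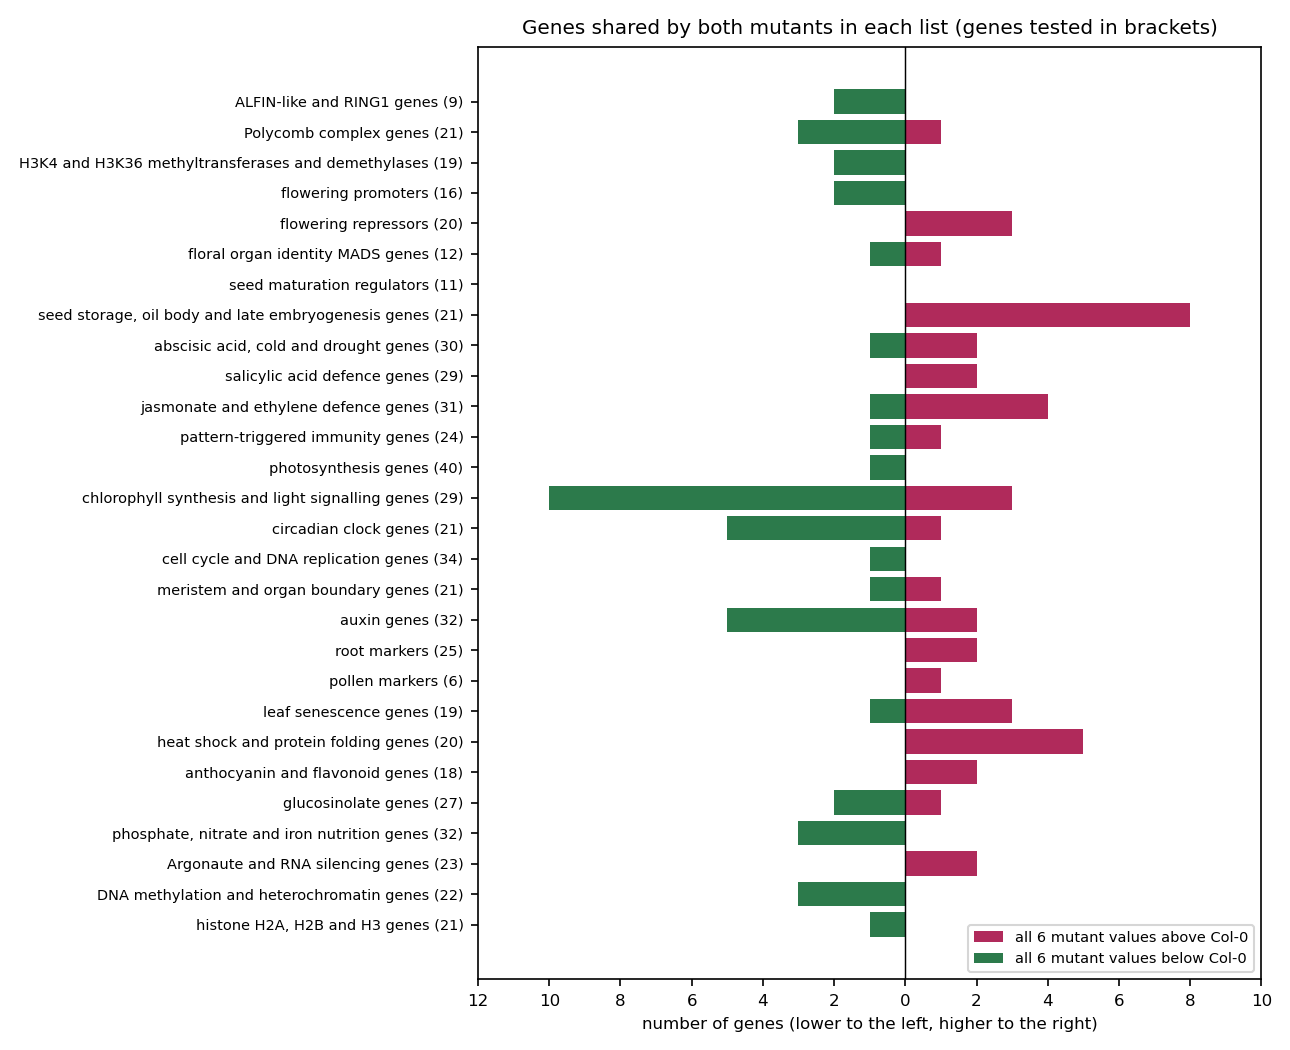
Number of genes in each of 28 lists whose 6 mutant values all lie above Col-0 (bars to the right) or below it (bars to the left), with the number tested in brackets. Chlorophyll and light genes (10 of 29 below) and seed storage genes (8 of 21 above) have the longest bars.

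Of 19 leaf senescence genes, 3 lay above Col-0 and 1 below, while 11 rose, 3 fell and 5 did not pass. ORE1 (listed as NAC6), a senescence regulator, had 377, 437 and 443 in al24567 and 279, 345 and 328 in ring1a1b, against 225, 252 and 204 in Col-0, and SRG1 had 291, 287 and 343 in al24567 and 153, 173 and 151 in ring1a1b, against 88.4, 108 and 98.4 in Col-0. Of 18 anthocyanin and flavonoid genes, 2 lay above and 0 below, while 4 rose, 1 fell and 13 did not pass. Their median fitted log2 change was 1.21 in al24567 and -0.31 in ring1a1b. MYB12, a flavonol regulator, had 65.1, 64.7 and 50.3 in al24567 and 55.2, 76.4 and 61.1 in ring1a1b, against 25, 26.4 and 35.5 in Col-0, and the chalcone isomerase gene TT5 had 744, 940 and 995 in al24567 and 569, 518 and 448 in ring1a1b, against 396, 398 and 395 in Col-0.

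Of 27 glucosinolate genes, 1 lay above Col-0 and 2 below, while 7 rose, 4 fell and 16 did not pass. With equal totals 1 lay below, and on recovered reads 1. ESM1, which affects glucosinolate breakdown, had 4841, 6817 and 5908 in al24567 and 1757, 1776 and 1834 in ring1a1b, against 12515, 10066 and 10663 in Col-0. Its fall was larger in ring1a1b (ring1a1b minus al24567 -1.70 ± 0.10, limma adjusted p = 2.43e-10). The myrosinase gene TGG2 had 13265, 14857 and 16249 in al24567 and 17308, 16449 and 19732 in ring1a1b, against 22908, 19890 and 21029 in Col-0. Against Col-0, its ring1a1b change did not pass the test (-0.26 ± 0.09, limma adjusted p = 0.0659). IPMI2, of side-chain elongation, had 2351, 2521 and 2765 in al24567 and 2001, 1903 and 2065 in ring1a1b, against 1666, 1450 and 1681 in Col-0. Of 32 phosphate, nitrate and iron nutrition genes, 3 lay below and 0 above, while 8 rose, 5 fell and 19 did not pass. PHR1, the phosphate starvation regulator, had 1029, 1126 and 1117 in al24567 and 1148, 1141 and 1234 in ring1a1b, against 1421, 1337 and 1370 in Col-0. NLP7, the nitrate regulator, had 1271, 1348 and 1430 in al24567 and 1644, 1672 and 1761 in ring1a1b, against 1782, 1900 and 1929 in Col-0, and BTS, an iron-responsive ligase gene, had 2191, 1768 and 2211 in al24567 and 2313, 2332 and 2485 in ring1a1b, against 3159, 2625 and 2859 in Col-0.

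Immune receptor genes had the largest share of members below Col-0 of the families examined. Families were sets of at least 30 tested genes with the same product name, and those described were chosen after their values were seen. Of 62 genes of the TIR-NBS-LRR class, whose products detect pathogen effectors inside cells, 22 (35.5%) lay below Col-0 and 0 above, while 24 fell and 3 rose. With equal totals 18 lay below, and on recovered reads 21. The median averaged log2 change of the 62 genes was -0.09, so the examples below show larger falls than the typical member.

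AT3G44630 (chromosome 3, 16195848 to 16201225) had 1145, 1217 and 1298 in al24567 and 1267, 1379 and 1401 in ring1a1b, against 2085, 2368 and 2214 in Col-0. AT1G63750 had 293, 326 and 342 in al24567 and 284, 362 and 352 in ring1a1b, against 539, 592 and 563 in Col-0, and AT5G22690 had 162, 210 and 141 in al24567 and 146, 161 and 145 in ring1a1b, against 220, 245 and 266 in Col-0. In all 3 the mutants overlapped each other and lay below every Col-0 library, with averaged log2 changes of -0.79 ± 0.06, -0.79 ± 0.09 and -0.61 ± 0.13 (limma adjusted p = 6.48e-08, 4.8e-06 and 0.00185). RPS4, a receptor of bacterial effectors, had 408, 462 and 426 in al24567 and 415, 443 and 426 in ring1a1b, against 553, 573 and 492 in Col-0. RPP1 and RPP5, receptors of downy mildew, had averaged log2 changes of -0.25 ± 0.06 and -0.30 ± 0.07. Against Col-0, RPP1 did not pass the test in al24567 (-0.13 ± 0.06, limma adjusted p = 0.11). RPP5 did not pass it in ring1a1b (-0.22 ± 0.08, limma adjusted p = 0.0571). Such receptor genes lie in clusters of similar copies and may exchange reads.

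Of 37 haloacid dehalogenase-like hydrolase genes, 9 (24.3%) lay below Col-0 and 0 above. With equal totals 8 lay below, and on recovered reads 7. AT2G41250 had 1999, 1664 and 1826 in al24567 and 1876, 1761 and 1697 in ring1a1b, against 2491, 2169 and 2454 in Col-0. ATTPPA, for a trehalose phosphate phosphatase, had 329, 303 and 293 in al24567 and 342, 387 and 383 in ring1a1b, against 459, 433 and 444 in Col-0, and AT4G26190 had 476, 615 and 407 in al24567 and 728, 763 and 816 in ring1a1b, against 908, 927 and 913 in Col-0.

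Peroxidases and sugar transferases had the largest shares above Col-0. Of 60 peroxidase genes, 12 (20.0%) lay above and 1 below, while 25 rose and 2 fell. With equal totals 13 lay above and 0 below, and on recovered reads 11 and 0. AT5G19890 had 277, 255 and 240 in al24567 and 238, 267 and 250 in ring1a1b, against 77.9, 73.7 and 62.1 in Col-0, with a rise of 1.83 ± 0.12 on the log2 scale (limma adjusted p = 5.59e-09) and a difference between the mutants of -0.03 ± 0.14 (adjusted p = 0.881). AT5G39580 had 101, 124 and 149 in al24567 and 150, 150 and 118 in ring1a1b, against 68.5, 69.4 and 46.4 in Col-0, and AT4G11290 had 423, 415 and 481 in al24567 and 544, 436 and 420 in ring1a1b, against 255, 201 and 234 in Col-0. Of 25 root markers, 2 lay above and 0 below, while 9 rose, 1 fell and 15 did not pass; SCR, a root patterning gene, had 863, 974 and 1035 in al24567 and 755, 883 and 778 in ring1a1b, against 701, 722 and 732 in Col-0. Their summed level was 8898 to 10040 in al24567 and 7305 to 7812 in ring1a1b, against 6563 to 6936 in Col-0, and its part in the peroxidase values was not tested. Of 6 pollen markers, 1 lay above Col-0 and all 6 did not pass the test, and on recovered reads 0 met the rule.

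Of 75 UDP-glycosyltransferase genes, whose products attach sugars to hormones and phenolics, 15 (20.0%) lay above Col-0 and 3 below. UGT84A3 had 786, 808 and 963 in al24567 and 698, 643 and 592 in ring1a1b, against 383, 451 and 381 in Col-0. AT4G09500 had 318, 365 and 345 in al24567 and 440, 376 and 407 in ring1a1b, against 257, 214 and 181 in Col-0, and AT5G53990 had 71.2, 106 and 97.5 in al24567 and 82.5, 85.9 and 64.2 in ring1a1b, against 34.5, 53.6 and 55.2 in Col-0. AT5G53990 was no longer called without Col-0 replicate 1 (limma adjusted p = 0.0644).

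The share of genes that met the rule was also read along the mean adjusted read count, which is not per length and so moves with transcript length as well as with expression. The median transcript length was 1684.5 bases above Col-0 and 1910.5 below, against 1646 over all tested genes. Tested genes were divided into 5 equal bins by mean count. In the lowest bin, 3.77% lay above and 2.54% below Col-0. In the highest bin, 8.29% lay above and 16.6% below. Among genes that met the rule, the median log2 averaged change was 0.39 above and -0.31 below in the highest bin. In the lowest bin it was 1.40 above and -1.42 below. The rule asks for a larger change where libraries vary more, as at low counts. The shares and medians of the bins therefore do not measure how strongly genes of each level responded.

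**Figure D5:**
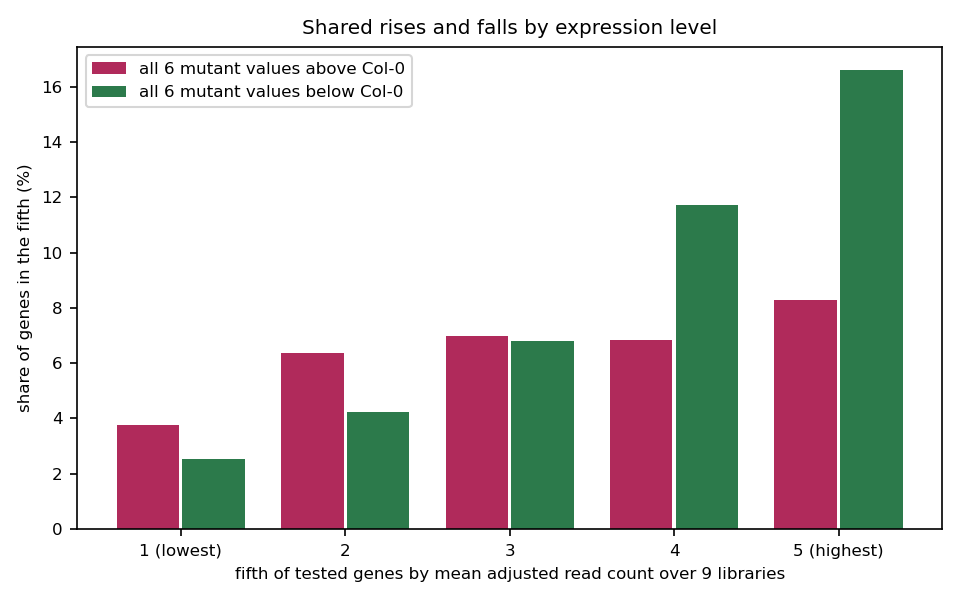
Share of tested genes (%) whose 6 mutant values all lie above Col-0 (red) or below it (green), in 5 equal bins of genes by mean adjusted read count over 9 libraries. The share below rises to 16.6% in the highest bin, and the share above to 8.29%.

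Of the genes above Col-0, 353 of 1496 had a single exon, and of those below it 168 of 1942 (8.65%), against 4473 of all 23207 tested genes (19.3%). Among genes with a mean of at least 40 the shares were 21.3% above, 6.53% below and 13.2% over all. Chromosome 4 held 18% of the genes above and 13.0% of those below, against 15.3% of all. There were 6 runs of 4 neighbouring tested genes with the same shared direction. The run from AT5G47580 to AT5G47610 on chromosome 5 lay above Col-0 with a median log2 averaged change of 1.40, and the run from AT3G44610 to AT3G44670 on chromosome 3, which holds AT3G44630, lay below with -0.33.

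Many genes called in the averaged contrast did not meet the rule. Of 3001 such genes, al24567 alone lay beyond Col-0 in 2031, ring1a1b alone in 747, the mutants lay on opposite sides in 195, and neither did so in 28. Over all tested genes, 687 (2.96%) lay above Col-0 in al24567 and below it in ring1a1b, and 703 (3.03%) the other way, while with equal totals the counts were 409 and 907. PR1, a marker of salicylic acid defence, had 5232, 4907 and 5337 in al24567 and 20, 194 and 7.38 in ring1a1b, against 732, 1050 and 1302 in Col-0. DOG1, a seed dormancy gene, had 6.01, 1.13 and 4.42 in al24567 and 179, 190 and 217 in ring1a1b, against 20.9, 32.6 and 41.7 in Col-0. Neither passed the averaged test (limma adjusted p = 0.1 and 0.837), although the mutants differed by -7.31 ± 0.65 and 5.50 ± 0.39 on the log2 scale (ring1a1b minus al24567; adjusted p = 5.1e-08 and 2.97e-09). Without ring1a1b replicate 2, its highest library, PR1 was called lower in the averaged contrast (-1.94, limma adjusted p = 8.91e-06).

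At the edge of the rule, values were the same to 3 digits. GUT2, just inside, had 210, 173 and 215 in al24567 and 189, 240 and 222 in ring1a1b, against 142, 168 and 173 in Col-0, and B120, just outside, had 188, 176 and 197 in al24567 and 97.9, 88.4 and 124 in ring1a1b, against 78, 88.4 and 88.3 in Col-0. On the lower side AT2G29360, just inside, had 709, 761 and 763 in al24567 and 1056, 1078 and 972 in ring1a1b, against 1296, 1187 and 1078 in Col-0, and AT5G33300, just outside, had 65.1, 78.4 and 64.5 in al24567 and 92.2, 100 and 78.5 in ring1a1b, against 108, 100 and 116 in Col-0.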

How the data were processed

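RNA-seq was done on 3 libraries each of al24567, ring1a1b and Col-0 seedlings. Per the submitters' processing notes, the tools were bcl2fastq, HISAT2 and edgeR with the TAIR10 build; versions, counting settings and strand use are not given in the sources used here, so antisense or overlapping genes cannot be separated. The deposited values (signal) behave as edgeR counts adjusted to a common library size by the authors. All 292932 values gave whole reads (100%; tolerance 0.01 reads or 1e-05 of the value), which served for count tests as alternatives. The deposited signal was tested as log2(value + 1) with limma 3.58.1 (R 4.3.3), in the 23207 genes that reached a value of 1 in at least 3 libraries, with 6 residual degrees of freedom and Benjamini-Hochberg adjustment over all tested genes. Fold changes are on that scale and understate those of low genes. edgeR 4.0.16 and DESeq2 1.42.0 were run on recovered reads, and scripts were tested on simulated data.

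Named genes were the 12 rises and 12 falls with the largest smaller change among called shared genes with a mean of at least 40, up to 3 genes per direction of each list (otherwise the member with the smallest p), 4 per direction with the largest difference between mutants, 3 per opposite direction, those at the edge of the rule, the AL and RING1 genes, and 3 members of each of 4 families. RPS4, RPP1 and RPP5 were added after their values were seen. The 28 lists held 726 entries, of which 684 matched. The members and lists were chosen with earlier results of these data known. Promoters and names come from RefSeq TAIR10.1. Other comparisons of the study are not used here.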

Additional observations from a re-analysis of the deposited data

How the results depend on the processing

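All 103 called genes picked by the naming rules kept their direction in the 16 settings, and 93 kept their call in each. RPS4, RPP1, RPP5, ULT2 and DELTA-VPE, chosen after their values were seen, were not put through the settings. The 3113 genes called higher and 2821 called lower became 2011 and 1699 at an adjusted p below 0.01, 683 and 273 at 2-fold or more, and 762 and 932 when each mutant was fitted with Col-0 alone and called in both. Leaving out each library gave 2232 to 3098 higher and 1878 to 2898 lower. Genes above Col-0 in al24567 and below it in ring1a1b numbered 409 with equal totals, against 687 as deposited; the cause was not tested. edgeR called 3129 higher and 2782 lower, and DESeq2 3096 and 2523, with 1351 adjusted p-values missing.

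The same replicate numbers did not pair the samples (correlations of deviations from -0.017 to 0.038), and with a replicate block 3195 genes were called higher and 2907 lower. Averaged log2 changes that turned sign were all of genes not called. With single libraries left out, RING1B (-0.03) ran between -0.21 and 0.10, LURP1 (0.08) between -0.19 and 0.33, AT5G24200 (0.22) between -0.33 and 0.98, and DOG1 (-0.12) between -0.38 and 0.14. AT4G22390 (0.26) gave -0.85 with a pseudocount of 0.1, -0.34 by edgeR and -0.49 by DESeq2, and AT5G24200 gave -0.31, -0.19 and -0.26 in those settings. Fitted changes of genes with 0 to 3 Col-0 reads depend on the pseudocount, and at this depth limits below 3 counts cannot be set.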
